A study of Mus musculus with 4 samples.

Results

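Astrocyte and late radial glia effector genes were followed in bulk RNA-seq of the mouse cerebral cortex at embryonic day 15. The set was a list of 43 genes for transporters, enzymes, secreted proteins, receptors and filaments of the glial lineage, with transcription factors left out. Of the 43 genes, 39 had a row in the count table of 13289 genes, and S100b, Agt, Mt2 and Gpr37l1 were not analysed here. The table holds 2 control libraries (titled WT) and 2 libraries in which Lhx2, a LIM-homeodomain transcription factor gene of cortical progenitors, was targeted (titled Lhx2cKO, read as conditional knockout and called Lhx2 cKO here). All 4 libraries were made from polyadenylated RNA of fresh tissue at the same age. The driver line, the allele, the strain and the number of embryos behind a library are not given in the sources used here, nor is it said whether replicates came from separate animals, so p-values measure the spread between these libraries.

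Radial glia are the stem cells of the developing cortex. They carry a program of glial genes while they still produce neurons: the lipid-binding protein gene Fabp7, the glutamate transporter gene Slc1a3 and the filament gene Vim are classical radial glia genes that astrocytes keep. Astrocytes arise from the same cells around birth and add proteins for water transport, transmitter uptake and metabolism, of which Aldh1l1, Aqp4 and Gfap are widely used markers. In bulk tissue, more cells of a type and more RNA per cell cannot be told apart.

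Total counts ran from 22294237 to 24609627 per library, so that 3 counts, taken as the floor of detection, were worth 0.12 to 0.132 CPM, the read count scaled to a common library total with TMM factors. Such a floor allows for counting error alone. Lhx2 itself was at 316 and 287 CPM in control and at 239 and 247 CPM in Lhx2 cKO, which is 80.7% of the control level (a log2 difference of -0.31 with SE 0.0976, adjusted p 0.0191 by edgeR). Of the cortical genes, Tbr1 was at 239 to 256 CPM in the 4 libraries, and Emx1 was at 119 and 107 CPM in control and at 39.1 and 38.9 CPM in Lhx2 cKO.

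Of the 39 members, 16 were called higher and 4 lower in Lhx2 cKO at an adjusted p under 0.05 in edgeR's quasi-likelihood test, adjusted by Benjamini-Hochberg over 13288 genes. Over all genes tested, 11.6% were called higher and 9.17% lower. Leaving out Lhx2 cKO 2 gave 11 higher and 2 lower, and leaving out control 2 gave 16 higher and 2 lower. The median log2 fold change was 0.20 over the members and 0.003 over all genes tested. The members called higher were led by Aldh1l1, Slc6a11, Htra1, Aqp4 and Sparcl1, each at least 2-fold. Gfap is counted among the 16, but its call followed from its low row total, as given with its counts. Those called lower were Plpp3, Mt3, Nes and Prom1, each at 70.1% to 82.4% of the control level. Control and Lhx2 cKO libraries were separated without overlap for 28 of the 39 members (71.8%), against 59.3% of all genes tested.

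**Figure D1:**
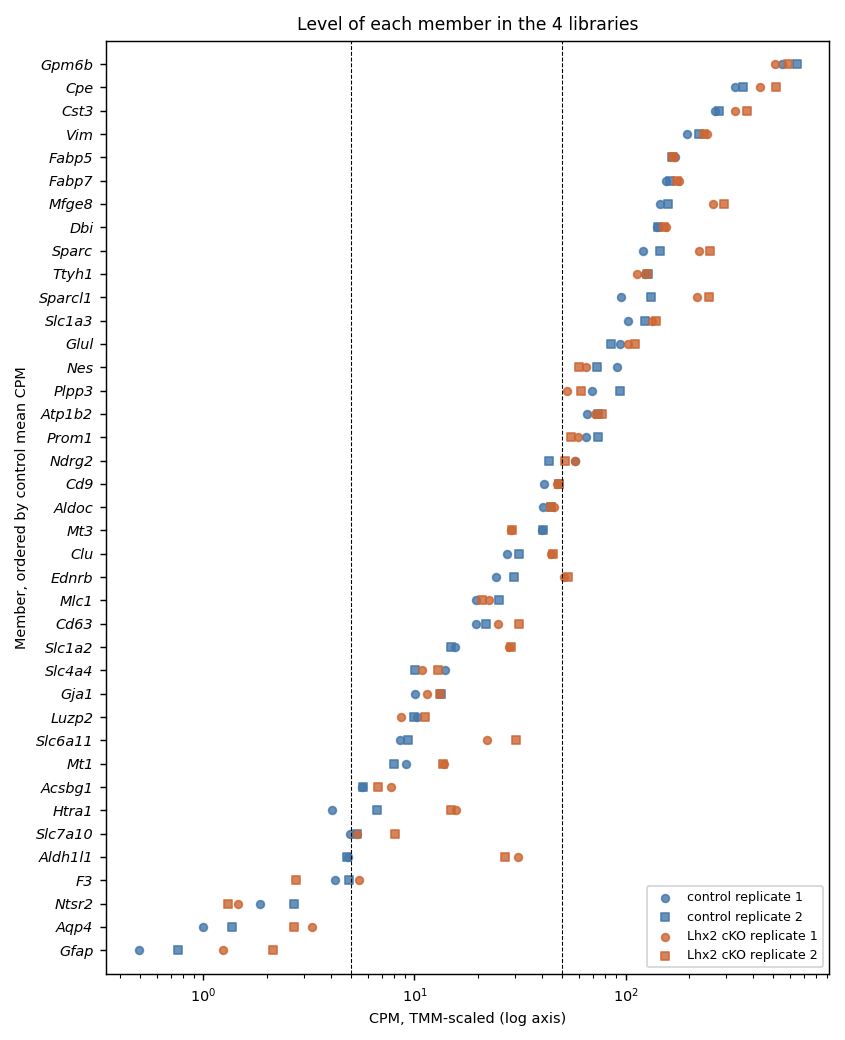
TMM-scaled CPM of the 39 members in each of the 4 libraries on a log axis, ordered by the control mean, with dashed lines at 5 and 50 CPM. The Lhx2 cKO points of Aldh1l1 lie at 27 and 30.8 CPM, against 4.8 and 4.83 CPM in control, while those of Fabp5 and Ttyh1 overlap the control points.

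The promoter windows of 5 members are shown because these genes stand for the patterns described. Aldh1l1 has the largest fold change, Gfap the lowest control level, and Plpp3 fell. Mt1 and Mt3 are metallothionein genes of the same chromosome called in opposite directions. The sequences are from RefSeq on GRCm38.p6 and run 5′ to 3′ from 250 bases before to 50 bases after the annotated start. Capitals mark 1 motif per gene, found on either strand: TGCACNC or TGCGCNC, the core of metal response elements, in Aldh1l1, Mt1 and Mt3, TTCCNGGAA, a STAT-type motif, in Gfap, and TAATTA, a homeodomain core, in Plpp3. The windows are chr6:90550543-90550842 (plus strand) for Aldh1l1, chr11:102897151-102897450 (minus strand) for Gfap, chr4:105157097-105157396 (plus strand) for Plpp3, chr8:94178839-94179138 (plus strand) for Mt1 and chr8:94152357-94152656 (plus strand) for Mt3.
Aldh1l1: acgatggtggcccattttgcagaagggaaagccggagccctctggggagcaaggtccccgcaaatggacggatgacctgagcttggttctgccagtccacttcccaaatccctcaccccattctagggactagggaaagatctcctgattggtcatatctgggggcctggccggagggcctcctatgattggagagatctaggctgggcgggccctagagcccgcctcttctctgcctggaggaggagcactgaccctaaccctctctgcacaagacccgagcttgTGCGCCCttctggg
Gfap: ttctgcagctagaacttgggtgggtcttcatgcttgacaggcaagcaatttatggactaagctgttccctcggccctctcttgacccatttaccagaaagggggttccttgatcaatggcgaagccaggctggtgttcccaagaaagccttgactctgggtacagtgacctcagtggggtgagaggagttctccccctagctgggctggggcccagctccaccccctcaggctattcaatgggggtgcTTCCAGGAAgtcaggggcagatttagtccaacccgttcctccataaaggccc
Plpp3: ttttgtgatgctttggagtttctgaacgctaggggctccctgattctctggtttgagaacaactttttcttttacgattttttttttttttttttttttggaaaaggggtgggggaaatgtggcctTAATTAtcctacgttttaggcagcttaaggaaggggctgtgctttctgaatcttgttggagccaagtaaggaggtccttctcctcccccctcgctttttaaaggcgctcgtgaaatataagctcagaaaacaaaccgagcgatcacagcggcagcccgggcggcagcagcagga
Mt1: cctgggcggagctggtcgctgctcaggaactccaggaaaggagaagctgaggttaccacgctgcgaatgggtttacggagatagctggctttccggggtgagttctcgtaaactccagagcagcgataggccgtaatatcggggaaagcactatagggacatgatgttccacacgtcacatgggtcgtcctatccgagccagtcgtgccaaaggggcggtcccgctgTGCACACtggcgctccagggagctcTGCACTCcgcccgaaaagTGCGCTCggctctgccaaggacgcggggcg
Mt3: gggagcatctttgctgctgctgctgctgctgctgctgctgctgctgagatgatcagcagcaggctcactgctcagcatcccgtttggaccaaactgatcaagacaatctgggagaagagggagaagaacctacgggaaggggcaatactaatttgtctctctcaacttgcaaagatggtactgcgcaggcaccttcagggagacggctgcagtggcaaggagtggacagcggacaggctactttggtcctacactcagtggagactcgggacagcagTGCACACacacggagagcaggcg
Windows were on hand for 33 of the 39 members. TAATTA was found in the windows of 3 of these genes, Luzp2 (not called), Plpp3 (called lower) and Slc1a3 (called higher), and in 5.29% of all 32851 windows. TTCCNGGAA was found for 2 members, Aldoc (not called) and Gfap, and in 1.15% of all windows. The metal response core was found for 11 members and in 25.7% of all windows, with 3 matches for Mt1 and 1 for Mt3. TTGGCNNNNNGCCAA, the full NFI motif, was found for 0 members and in 0.0365% of all windows. A member was counted if any of its windows matched, and some members have more than 1 window, whereas the percentages are per window. The counts and percentages are therefore not in the same unit. A match describes these letters only, and overlaps between motifs were not removed.

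The members were split by their control mean into 5 genes under 5 CPM, 16 genes from 5 to 50 CPM and 18 genes of at least 50 CPM. Just inside the lower limit were F3 at 4.54 CPM and Aldh1l1 at 4.81 CPM, and just outside were Slc7a10 at 5.14 CPM and Htra1 at 5.36 CPM. At the upper limit Cd9 was at 44.7 CPM and Ndrg2 at 50.6 CPM. The median log2 fold change was 1.33 for the low group, 0.37 for the middle group and 0.14 for the high group. Over all genes tested it was 0.24, -0.004 and -0.04 at the same control levels. Without Lhx2 cKO 2 the median of the middle group was 0.18. The control libraries enter both the split and the fold change, so these medians are a description and were not tested. Rows below 102 counts in total were not analysed. Genes as low in control as Gfap are thus present only when higher in Lhx2 cKO. This lifts the low medians of the members and of all genes.

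In the low group, 3 of 5 members were called higher and 0 lower, where 14.5% of the 2401 genes at that level were called higher and 2% lower. The 3 were Aldh1l1, Aqp4 and Gfap, and the call of Gfap followed from its low row total, as given with its counts. In the middle group, 7 of 16 were called higher and 1 lower (11.2% and 8.55% of 6412 genes). In the high group, 6 of 18 were called higher and 3 lower (10.6% and 13.9% of 4475 genes). Over the same groups the members' summed CPM in Lhx2 cKO was 2.91, 1.29 and 1.19 times that in control. The low group's sums were 12.4 and 14.5 CPM in control and 42.2 and 35.9 CPM in Lhx2 cKO. Aldh1l1 alone held 4.83 and 4.8 CPM of these in control and 30.8 and 27 CPM in Lhx2 cKO. The 2.91 thus rested mostly on 1 gene and does not describe the low members as a class. The order of the group medians depended on where the limits lay. With limits at 10 and 100 CPM the medians were 1.01, 0.09 and 0.24, so that the middle group came lowest. With limits of 2 and 20 CPM per kilobase they were 0.62, 0.11 and 0.18, and with the low group taken from the mean of all 4 libraries, which moved Aldh1l1 out of it, its median was 0.59.

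**Figure D2:**
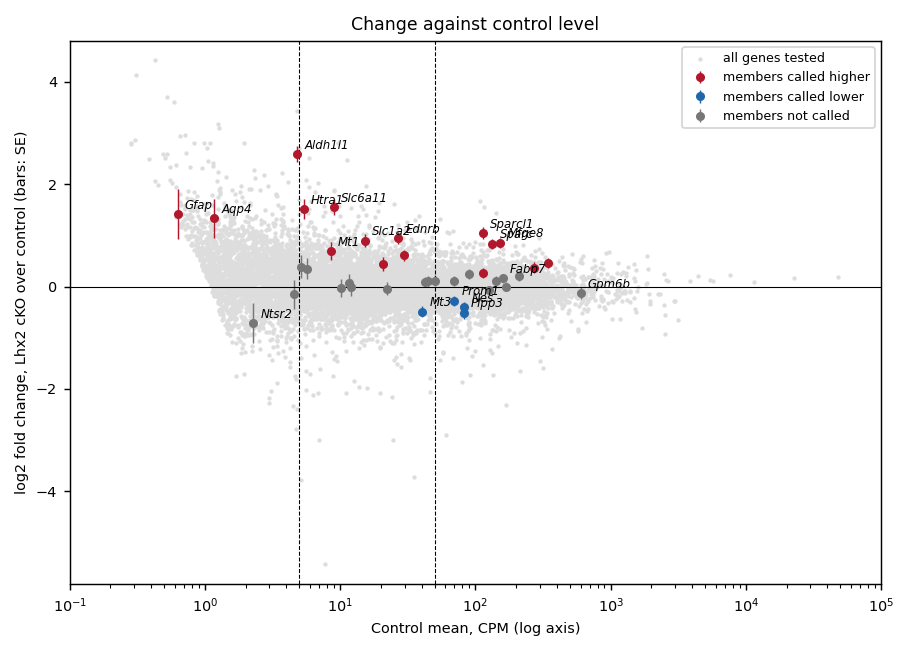
Log2 fold change of Lhx2 cKO over control (bars: SE) against the control mean in CPM on a log axis, for all genes tested (light grey) and the 39 members, with dashed lines at 5 and 50 CPM. Aldh1l1 at 2.58 stands at the top of the members, Gfap lies on the edge of the cloud at the far left, and the members called lower lie between 40.4 and 82.5 CPM in control.

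Aldh1l1 (ENSMUSG00000030088.16), a folate enzyme gene used as an astrocyte marker, had 117 and 120 counts in control and 701 and 620 in Lhx2 cKO. These correspond to 4.83 and 4.8 CPM against 30.8 and 27 CPM, with no overlap. The level was 6-fold higher in Lhx2 cKO (log2 fold change 2.58, SE 0.158, adjusted p 1.99e-16 by edgeR), and leaving out any 1 library kept it between 2.49 and 2.67. Per kilobase it rose from 1.07 to 6.4 CPM, which was still far below the 142 CPM per kilobase of Fabp7 in the same libraries. The annotation (GENCODE M21 on GRCm38) places Gm15756 on the other strand and Gm45901 on the same strand over exons of Aldh1l1, and the strand setting of the counting is not given in the sources used here.

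Aqp4, the water channel gene of astrocyte endfeet, was at 0.99 and 1.36 CPM in control and at 3.25 and 2.7 CPM in Lhx2 cKO. Both Lhx2 cKO libraries lay above both controls (log2 fold change 1.33, SE 0.38, adjusted p 0.00897 by edgeR). The call was lost without control 1 (1.11, adjusted p 0.0884) and without Lhx2 cKO 1 (1.19, adjusted p 0.0708). Gfap, the intermediate filament gene of mature astrocytes, had 12 and 19 counts in control and 28 and 49 in Lhx2 cKO, or 0.495 and 0.76 CPM against 1.23 and 2.13 CPM. Its log2 fold change was 1.41 (SE 0.486, adjusted p 0.0325 by edgeR), with an adjusted p of 0.0957 in DESeq2, 0.412 without Lhx2 cKO 2 and 0.201 without control 1. The 4 Gfap counts sum to 108, where the lowest row total in the table is 102. Of the genes tested with at most the 31 control counts of Gfap, all 22 were called higher, since a row so low in control is in the table only when it is higher in Lhx2 cKO, and its call therefore supports nothing.

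The other low members did not pass the test. Ntsr2, a neurotensin receptor gene of astrocytes, was at 1.86 and 2.68 CPM in control and at 1.45 and 1.31 CPM in Lhx2 cKO (log2 fold change -0.72, 95% interval -1.50 to 0.07, adjusted p 0.2 by edgeR). F3, the tissue factor gene, was at 4.21 and 4.88 CPM in control and at 5.45 and 2.74 CPM in Lhx2 cKO, where the Lhx2 cKO libraries lay on either side of the controls (-0.15, adjusted p 0.758). Of the 5 members lowest in control, those called were thus Aldh1l1, Aqp4 and Gfap, with the limits given for the latter pair.

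The 7 measured genes for secreted and matrix proteins were all called higher, where 11.6% of all genes tested were. Their summed level was 990 and 1112 CPM in control and 1523 and 1745 CPM in Lhx2 cKO. The members were chosen with earlier results of these data known. Htra1, a secreted serine protease gene, was at 4.08 and 6.64 CPM in control and at 15.8 and 14.8 CPM in Lhx2 cKO (log2 fold change 1.51, SE 0.19, adjusted p 5.7e-08 by edgeR). The controls of Htra1 differed, and the estimate ran from 1.19 to 1.91 when 1 library was left out. Sparcl1, a matricellular protein gene of radial glia, astrocytes and vessels, was at 95.3 and 132 CPM in control and at 218 and 250 CPM in Lhx2 cKO (1.04, SE 0.11, adjusted p 1.09e-09). Its relative Sparc was at 121 and 145 CPM against 223 and 253 CPM (0.83, SE 0.101, adjusted p 2.59e-08). For these 3 genes the Lhx2 cKO libraries lay well above both controls.

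Mfge8, a secreted bridging protein gene in the clearance of dying cells, was at 145 and 159 CPM in control and at 259 and 292 CPM in Lhx2 cKO (log2 fold change 0.86, SE 0.0983, adjusted p 6.53e-09 by edgeR). Clu, the gene of the extracellular chaperone clusterin, was at 27.4 and 31.4 CPM against 44.3 and 45.4 CPM (0.61, SE 0.109, adjusted p 3.9e-05). Both genes were separated without overlap and held their calls when any 1 library was left out. The neuropeptide-processing enzyme gene Cpe was at 330 and 360 CPM in control and at 434 and 515 CPM in Lhx2 cKO (0.46, adjusted p 0.00109), with an adjusted p of 0.0577 without Lhx2 cKO 2. Cst3, the cysteine protease inhibitor gene cystatin C, was at 266 and 278 CPM against 329 and 375 CPM (0.37, adjusted p 0.00565), with an adjusted p of 0.14 without Lhx2 cKO 2 and 0.071 without control 1. The smaller changes in this group were thus those that depended on single libraries.

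**Figure D3:**
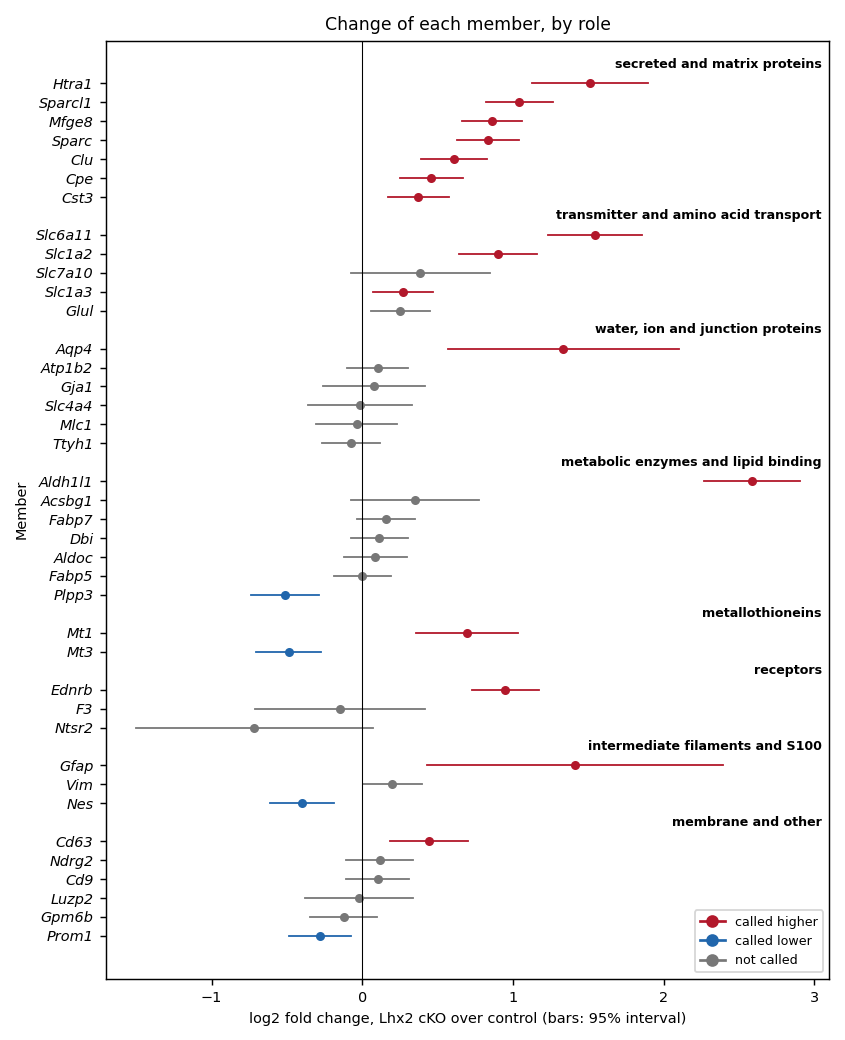
Log2 fold change of each member with its 95% interval, by role, with members called higher in red, called lower in blue and not called in grey. All 7 secreted and matrix genes lie above 0, whereas 5 of the 6 water, ion and junction genes have intervals that include 0.

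Of the 5 genes for transmitter and amino acid transport, 3 were called higher and 0 lower (11.6% and 9.17% of all genes tested). Slc6a11, the astrocytic GABA transporter gene GAT3, was at 8.58 and 9.36 CPM in control and at 22.1 and 30.3 CPM in Lhx2 cKO, without overlap (log2 fold change 1.55, SE 0.154, adjusted p 2.37e-10 by edgeR). Slc1a2, the glutamate transporter gene GLT-1 that dominates in mature astrocytes, was at 15.6 and 15 CPM against 28.2 and 28.8 CPM (0.90, SE 0.128, adjusted p 8.03e-07). Replicates of Slc1a2 lay close together in both groups. Gm13872, annotated in M21, overlaps its exons on the other strand.

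Slc1a3, the glutamate transporter gene GLAST of radial glia, was at 103 and 123 CPM in control and at 134 and 139 CPM in Lhx2 cKO. Its log2 fold change of 0.27 (SE 0.0977) was at the threshold, with an adjusted p of 0.0425 by edgeR and 0.0876 in DESeq2. It lost its call with library totals alone (0.0603) and without control 1 (0.532), Lhx2 cKO 1 (0.0696) or Lhx2 cKO 2 (0.194). In the authors' deposited table its adjusted p is 0.0604, and at a limit of 0.05 on that column the other 38 members fell on the same side as here. The authors' deposited table also carries a mark of its own, by which 12 of the 39 members are up and 0 down. Plpp3, Mt3, Nes and Prom1 are left unmarked there, although the authors' adjusted p is under 0.05 for all 4. Cpe and Cst3 are unmarked in the same way. The smallest of the authors' log2 fold changes among the 12 is 0.60 (Clu), so the mark is not a limit on adjusted p alone. Glul, the glutamine synthetase gene, was at 94 and 85.3 CPM against 103 and 110 CPM (0.25, adjusted p 0.0577), and reached 0.0499 with upper-quartile factors and 0.0486 with the replicate number as a block. Slc7a10, a neutral amino acid exchanger gene, was at 4.95 and 5.32 CPM against 5.36 and 8.05 CPM (0.39, 95% interval -0.07 to 0.85, adjusted p 0.247). Teddm2 overlaps Glul, and Lrp3 overlaps Slc7a10, on the other strand.

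Among water, ion and junction proteins, Aqp4 was the only member called. Gja1, the main astrocyte connexin gene, was at 10.1 and 13.3 CPM in control and at 11.5 and 13.2 CPM in Lhx2 cKO (log2 fold change 0.08, 95% interval -0.26 to 0.42). The bicarbonate cotransporter gene Slc4a4 was at 14 and 10 CPM against 10.9 and 12.9 CPM (-0.01, -0.36 to 0.33). Mlc1, an endfoot membrane protein gene, was at 19.5 and 25.2 CPM against 22.6 and 21 CPM (-0.04, -0.31 to 0.23). All 3 genes overlapped between groups, and their intervals leave out a 1.5-fold change (a log2 fold change of 0.585). The Na,K-ATPase subunit gene Atp1b2 (0.10, -0.10 to 0.30) and the chloride channel family gene Ttyh1 (-0.08, -0.27 to 0.11) were also not called, at control means of 69.8 and 126 CPM. Noncoding genes annotated on the other strand overlap exons of Ttyh1.

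Metabolic and lipid-binding genes held Aldh1l1 beside several abundant radial glia genes that were not called. Fabp7, the brain lipid-binding protein gene of radial glia, was at 155 and 163 CPM in control and at 179 and 176 CPM in Lhx2 cKO (log2 fold change 0.16, 95% interval -0.03 to 0.35, adjusted p 0.253 by edgeR). Fabp5, a second fatty acid-binding protein gene, was at 171 and 166 CPM against 169 and 168 CPM (0.000, -0.19 to 0.19). RefSeq lists a copy, Fabp5l2, so its reads may be split. Dbi, the acyl-CoA-binding protein gene, was at 141 and 143 CPM against 155 and 152 CPM (0.11, -0.08 to 0.30). The intervals of these 3 abundant genes leave out a change of 1.5-fold in either direction. Aldoc, the brain aldolase gene, was at 0.09 on the log2 scale (-0.12 to 0.30), and Acsbg1, an acyl-CoA synthetase gene, at 0.35 (-0.07 to 0.77) from a control mean of 5.67 CPM.

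Plpp3, a lipid phosphate phosphatase gene, went the other way. It was at 69 and 94.5 CPM in control and at 53 and 61.7 CPM in Lhx2 cKO (log2 fold change -0.51, SE 0.113, adjusted p 0.000734 by edgeR). The controls of Plpp3 differed by more than the Lhx2 cKO libraries, and without control 2 the estimate was -0.27 (adjusted p 0.121).

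The metallothioneins, small cysteine-rich proteins that bind zinc and copper, were called in opposite directions. Mt1, the metal-inducible form, was at 9.07 and 7.96 CPM in control and at 13.8 and 13.7 CPM in Lhx2 cKO (log2 fold change 0.69, SE 0.167, adjusted p 0.00187 by edgeR). Mt3, the brain form, was at 40.3 and 40.6 CPM against 28.6 and 29 CPM (-0.49, SE 0.108, adjusted p 0.00076). The groups did not overlap for either gene, and both directions held with any 1 library left out. Per kilobase Mt3 stood at 37.9 CPM in control and 27 CPM in Lhx2 cKO, and Mt1 at 6.84 and 11.1 CPM.

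Of the receptor genes, Ednrb, which encodes the endothelin B receptor of glia and their precursors, was called higher. It was at 24.4 and 29.5 CPM in control and at 51 and 53.2 CPM in Lhx2 cKO (log2 fold change 0.95, SE 0.11, adjusted p 8.98e-09 by edgeR), without overlap. Ntsr2 and F3, given above, were not called.

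Of the filament genes of radial glia, Nes was called lower and Vim was not called. Nes, the gene of the progenitor filament nestin, was at 91.6 and 73.5 CPM in control and at 65 and 60.2 CPM in Lhx2 cKO (log2 fold change -0.40, SE 0.104, adjusted p 0.00438 by edgeR). Its call was lost without control 1 (-0.24, adjusted p 0.192) and, narrowly, without Lhx2 cKO 2 (adjusted p 0.0503). Vim was at 195 and 223 CPM against 244 and 236 CPM (0.20, 95% interval 0.003 to 0.40, adjusted p 0.149). The Lhx2 cKO libraries thus lay below both controls for Nes and above both for Vim, which was not called.

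Among membrane proteins, Prom1, the gene of the apical progenitor protein prominin-1, was at 65.3 and 74.1 CPM in control and at 59.9 and 55 CPM in Lhx2 cKO (log2 fold change -0.28, SE 0.101, adjusted p 0.0432 by edgeR). It was near the threshold, with an adjusted p of 0.0865 in DESeq2, 0.292 without Lhx2 cKO 2 and 0.33 without control 2, and Gm16401 overlaps it on the other strand. Cd63, a tetraspanin gene of endosomes, was at 19.5 and 21.8 CPM against 24.7 and 31.3 CPM (0.44, adjusted p 0.0107), with an adjusted p of 0.343 without Lhx2 cKO 2 and 0.132 without control 1. The tetraspanin gene Cd9 was at 0.10 on the log2 scale, the NDRG family gene Ndrg2 at 0.11 and the leucine zipper protein gene Luzp2 at -0.02, each with overlapping groups. Cd63 and Cd9 each have a pseudogene copy in RefSeq. Gpm6b, a proteolipid family gene, had the highest CPM of the members in control, 554 and 646 CPM, against 509 and 592 CPM in Lhx2 cKO (-0.12, -0.34 to 0.10).

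Per kilobase of the deposited gene length, Cst3 had the highest control level of the members, 215 CPM per kilobase, followed by Cpe at 132, Fabp7 at 127, Gpm6b at 107 and Dbi at 99.7. Gfap at 0.149 and Aqp4 at 0.189 CPM per kilobase were the lowest in control. In Lhx2 cKO the lowest members were Gfap at 0.399 CPM per kilobase, Ntsr2 at 0.442 and Aqp4 at 0.477.

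Other glial genes were read from a list of 26 that held no member, of which 25 were measured. Of these, 8 were called higher and 8 lower (11.6% and 9.17% of all genes tested), with a median log2 fold change of -0.07. The genes called higher included the lipoprotein gene Apoe at 1.68, the matrix genes Tnc at 1.56 and Bcan at 1.30, and Id3 at 0.82. Those called lower included the glial transcription factor genes Nfix at -0.81, Sox9 at -0.73, Nfia at -0.56 and Nfib at -0.35, with Id4 at -0.71 and the receptor gene Fgfr3 at -0.80. The 7 secreted and matrix members were called higher in libraries where Sox9 and 3 NFI genes were called lower. Whether these changes lay in the same cells was not tested.

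Marker sums of several cell types differed between the groups, some higher and some lower in Lhx2 cKO. Over all genes tested, 11.6% were called higher and 9.17% lower. Radial glia markers (Pax6, Sox2, Hes5, Emx2, Notch1 and Sox3) summed to 318 and 316 CPM in control and to 189 and 173 CPM in Lhx2 cKO, with 4 of 6 called lower and 0 higher. All 6 cell cycle markers were called lower, with sums of 297 and 343 CPM against 179 and 179 CPM. These ran beside the lower Nes and Prom1, whereas Fabp7, Fabp5, Dbi, Ttyh1 and Vim were not called. Slc1a3 was called higher, near the threshold (adjusted p 0.0425 by edgeR). For Fabp7, Dbi and Vim both Lhx2 cKO libraries lay above both controls, so the radial glia genes among the members did not all go the same way. Of 10 microglia markers 9 were called higher, and the sums were 134 and 134 CPM against 276 and 299 CPM. Cst3 and Cd63 are also abundant in microglia. Of 8 endothelial markers 6 were called higher, with sums of 153 and 188 CPM against 238 and 278 CPM, and Sparc and Sparcl1 are also endothelial genes. Of 7 oligodendrocyte precursor markers 5 were called higher, with sums of 56.9 and 64 CPM against 98.7 and 105 CPM. Mural and meningeal markers summed to 151 and 149 CPM against 119 and 120 CPM over 5 measured genes, of which Col1a1 and Rgs5 were called lower and 0 higher. Aqp1, the measured choroid plexus marker, was at 1.28 to 1.52 CPM in all libraries. The part of these cell types, or of neurons, in the changes of Cst3, Cd63, Sparc, Sparcl1, Ednrb, Cpe and Apoe was not tested.

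**Figure D4:**
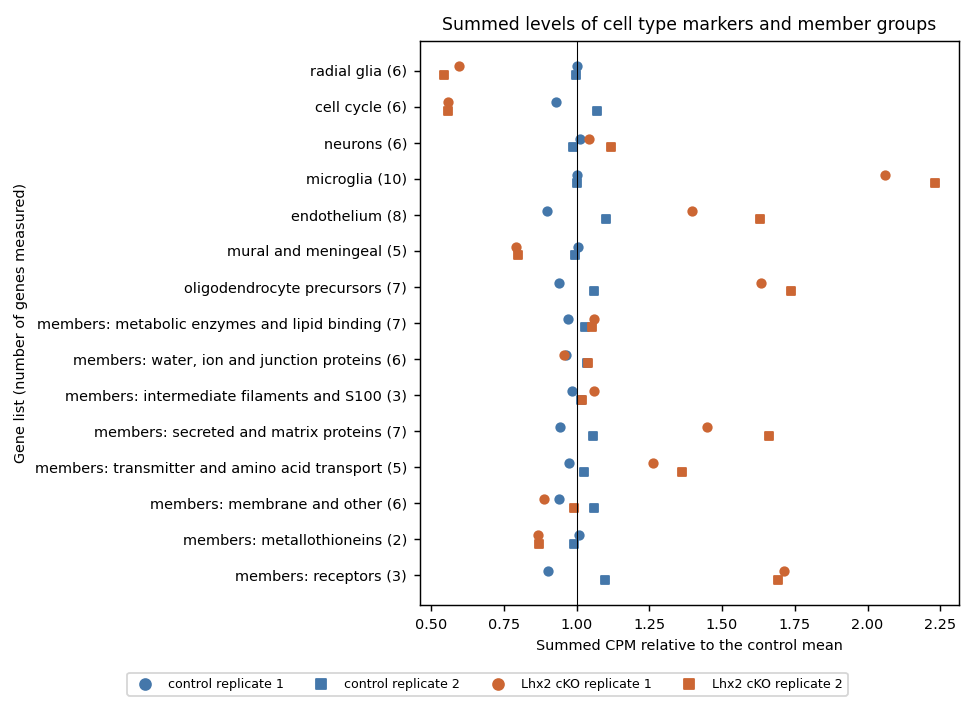
Summed CPM of each marker list and of each member group in the 4 libraries, relative to the mean of the 2 control libraries, with the number of genes measured in brackets. The microglia sum in Lhx2 cKO is 2.15 times that in control, the secreted and matrix members 1.55 times, and the radial glia sum 0.572 times.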

How the data were processed

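RNA-seq of cortex at embryonic day 15 was analysed in 2 control and 2 Lhx2 cKO libraries, grouped by their titles. The authors deposited whole-number read counts per gene, 1 column per library, with no normalization. Trim Galore, Subread, featureCounts, edgeR and the build mm39 are named in the submitters' processing notes, while versions, annotation and strand setting are not given in the sources used here. The same deposited table holds the authors' log2 fold change and mean log2 CPM, their p-value and adjusted p-value, -log10 of the latter, and a gene length. Its lowest row total is 102 counts, and rows below that were not analysed here.

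Counts were tested with edgeR 4.0.16 in R 4.3.3 (TMM, filterByExpr with a minimum count of 10, glmQLFit and glmQLFTest, two-sided, no covariates), which removed 1 gene. A gene with an adjusted p under 0.05 is said to be called. SEs were taken as the absolute estimate over the root of the F statistic, and intervals are 95%. The fit draws each gene's spread towards that pooled over all genes, with a prior worth 38.7 degrees of freedom. SEs, intervals and p-values thus rest mostly on the pooled spread between libraries, not on a gene's own replicates. Replicates within a group were separate libraries: their chi-square over its degrees of freedom was 13.9 in control and 14.3 in Lhx2 cKO. The fit was checked on simulated counts. Every measured member is named. Alternatives were other scalings, filters, tools (DESeq2 1.42.0, limma-voom in limma 3.58.1), a replicate block, other limits, and leaving out each library. The members and lists were chosen with earlier results of these data known. Some marker genes are not reported here.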

Additional observations from a re-analysis of the deposited data

How the results depend on the processing

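None of the 39 members that was called under the settings reported or under an alternative changed direction between them. Under the other scalings, filters, tools and the replicate block, 14 to 17 members were called higher and 3 or 4 lower, and the number of genes called ranged from 2170 (DESeq2) to 2879 (upper-quartile factors). A required log2 change of 1 or more in either direction can only lower the counts, and 6 members were then called higher, 0 lower and 446 genes in all. An adjusted p under 0.01 left 1697 genes. Leaving out 1 library gave 11 to 16 members higher, 2 to 4 lower and 1633 (without Lhx2 cKO 2) to 2396 genes, with 1790 without control 1, and the lone library of a group was assumed to vary like the others. In those fits the median log2 fold change ran from 0.959 to 1.583 for the low members, from 0.182 to 0.423 for the middle ones and from 0.102 to 0.186 for the high ones. With limits at 10 and 100 CPM the medians were 1.014, 0.087 and 0.235. With limits per kilobase they were 0.624, 0.114 and 0.179. By the mean of all 4 libraries the low median was 0.592 over the 4 members left, since Aldh1l1 moved to the middle group. A minimum mean count of 50 removed 3 of the 5 low members.

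Replicate numbers showed no shared effect: across genes, the difference between replicates 1 and 2 in control had a correlation of -0.0198 with that in Lhx2 cKO. This cannot show whether the libraries were paired, since a pairing of small effect could give a similar value. With the replicate block 17 members were called higher and 4 lower, with 2874 genes in all, and the medians were 1.337, 0.356 and 0.141. At 3 counts, worth 0.12 to 0.132 CPM, depth limits Gfap, Ntsr2 and Aqp4 most.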
